A study of Mus musculus with 4 samples.

Results

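The genes of cholesterol synthesis and sterol regulation were examined in 4 libraries of messenger RNA, 2 of the wild-type genotype (WT) and 2 of the Stra8 knockout (KO), made from mouse brain. The 30 genes were taken by name: 8 enzymes of the mevalonate steps, 10 enzymes of the later sterol steps, 5 regulators, and 7 genes of cholesterol transport, efflux and turnover. All 30 were found among the 55414 genes of the count table, and all 30 were among the 21592 genes that passed the filter on low counts. In germ cells Stra8 answers to retinoic acid and is needed for entry into meiosis. The labels give the genotype as Wild-type or Stra8-KO and the tissue as brain, with no age, sex, strain or number of animals. Per the series design, animals of both genotypes carried pStra8-GFP, in which green fluorescent protein is expressed from the promoter of Stra8, and positive cells were taken from the hippocampi by sorting. The purpose stated is to compare the transcriptomes of these cells between genotypes.

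Cholesterol in the brain is made in place, because the blood-brain barrier keeps out the cholesterol of the circulation. Acetyl-CoA is built up to mevalonate and then to squalene, and squalene is closed into the first sterol and trimmed to cholesterol. When membranes of the endoplasmic reticulum run low in cholesterol, the escort protein Scap carries the SREBP factors to the Golgi, where they are cut and released to switch on the synthesis genes. Insig proteins hold Scap back when sterol is plentiful. Oligodendrocytes need large amounts for myelin, astrocytes supply neurons, and neurons dispose of surplus by oxidising it to an oxysterol that can leave the brain.

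The libraries held 71097417 to 82172740 counts each. Stra8 had 5 and 1 reads in WT libraries 1 and 2, and 7 and 4 reads in KO libraries 1 and 2, so the genotype labels were taken as given and are not checked by these counts. No label ties a library to an animal of its own, so p-values measure only the spread between these libraries, which may be technical. Genes that mark regions outside the hippocampus were present in every library. The genes listed for the cerebellum, Cbln3, Gabra6, Fat2, Pcp2, Zic1 and Calb2, summed to 323 to 331 CPM in WT and 213 to 214 CPM in KO. Here CPM is the read count scaled to the TMM-adjusted library total. Zic1 and Calb2 made up most of the WT sum, with WT means of 111 and 81.6 CPM. Their log2 fold changes, KO over WT, were -0.42 and -0.18. Those of Cbln3, Gabra6, Fat2 and Pcp2 ran from -1.36 (Pcp2) to -1.14 (Gabra6). Whether Zic1 and Calb2 mark the cerebellum alone was not tested. The pituitary genes with enough counts, Gh, Prl and Pomc, summed to 60.6 to 60.7 CPM in WT and 28.5 to 29.0 CPM in KO. Pairs of values are given in the order library 1, library 2. The values below are therefore those of the WT and KO libraries, not of a defined cell type.

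Of the 30 sterol genes 2 rose in KO, 1 fell and 27 did not pass the test (quasi-likelihood test in edgeR, adjusted p under 0.05 by Benjamini-Hochberg, n = 2 per genotype). Over all genes tested 3.35% were called higher and 3.19% lower, 6.53% in all. The genes that rose were Hmgcs1, the enzyme that makes HMG-CoA, and Cyp46a1, the hydroxylase through which neurons turn cholesterol into an exportable oxysterol. The gene that fell was Abca1, the transporter that hands cellular cholesterol to apolipoproteins. All of these changes were small. The log2 fold changes of the 30 genes, KO over WT, ran from -0.13 to 0.18 with a median of 0.025, and the median of all tested genes was -0.00038. In 22 of the 30 genes the fold change was above 0, as it was in 49.9% of all genes tested. That number was 20 with scaling by library size alone, where Idi1 and Insig2 turned, and 18 to 24 with 1 library left out.

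**Figure D1:**
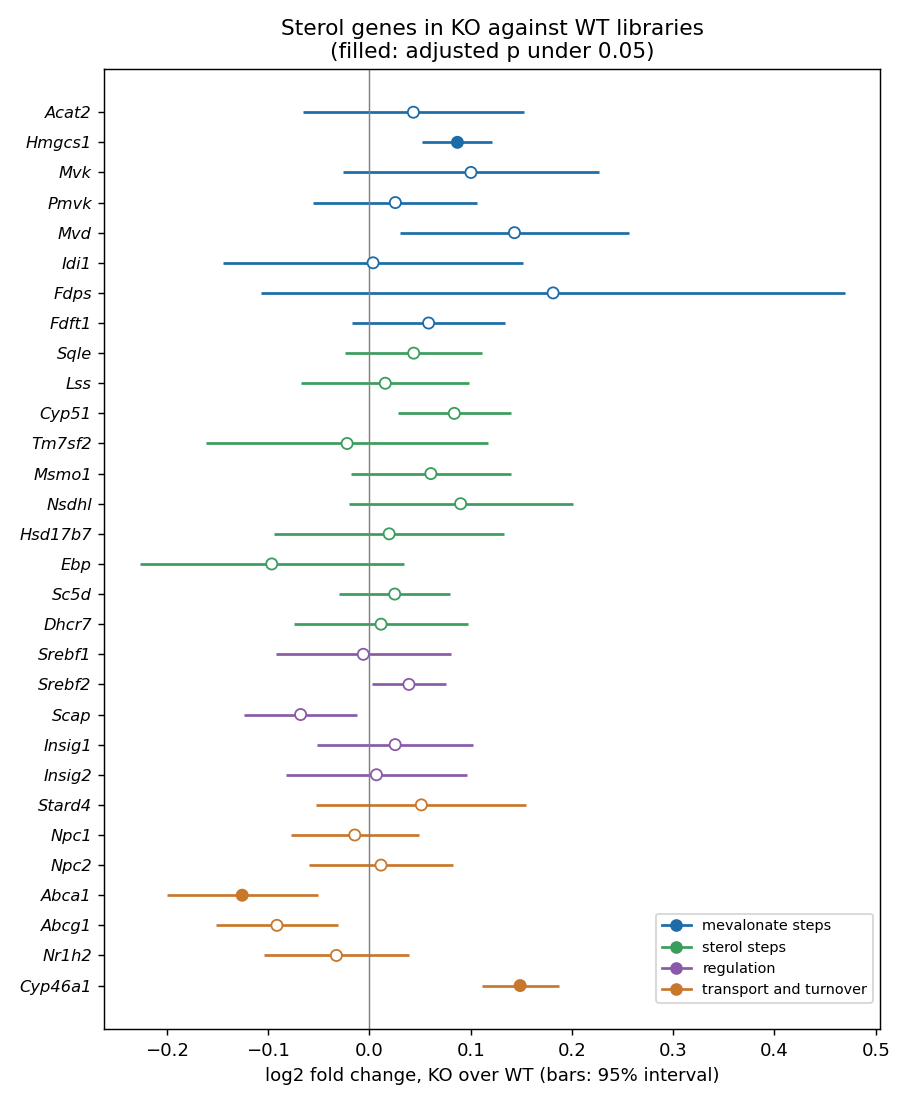
Log2 fold change, KO over WT, of the 30 sterol genes in pathway order, with bars for the 95% interval from the edgeR fit and filled points for called genes. Hmgcs1 and Cyp46a1 lie above 0 and Abca1 below it, while the bars of most other genes cross 0.

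The promoters of the 3 called genes are shown for a limited set of motif letters. The element of the LXR receptors, of which Abca1 is a target, was not searched, so an unmarked stretch may hold it. RefSeq promoter windows (build GRCm38.p6, from 250 bases before to 50 after the start) were matched by symbol for 24 of the 30 genes, in 32 windows. Fdps, Fdft1, Sqle, Stard4, Npc1 and Abcg1 had no window and were not searched. The counts are on another build, GRCm39, so the positions below belong to the sequence table only. Each line gives the 200 bases before the start, 5′ to 3′ in the direction of the gene. Capitals mark the sterol response element letters TCACNCCAC, the CCAAT box and the E-box CACGTG on either strand, and no 2 marked matches overlap in these lines.
Hmgcs1, chr13:119690151-119690350, plus strand: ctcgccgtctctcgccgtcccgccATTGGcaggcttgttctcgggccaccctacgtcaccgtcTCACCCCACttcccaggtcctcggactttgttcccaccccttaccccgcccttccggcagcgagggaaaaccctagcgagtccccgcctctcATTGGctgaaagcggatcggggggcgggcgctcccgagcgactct
Cyp46a1, chr12:108334116-108334315, plus strand: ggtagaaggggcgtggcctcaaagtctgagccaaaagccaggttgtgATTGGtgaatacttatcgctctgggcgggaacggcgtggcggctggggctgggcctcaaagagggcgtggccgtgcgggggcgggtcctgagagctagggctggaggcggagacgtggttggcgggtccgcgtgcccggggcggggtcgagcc
Abca1, chr4:53159896-53160095, minus strand: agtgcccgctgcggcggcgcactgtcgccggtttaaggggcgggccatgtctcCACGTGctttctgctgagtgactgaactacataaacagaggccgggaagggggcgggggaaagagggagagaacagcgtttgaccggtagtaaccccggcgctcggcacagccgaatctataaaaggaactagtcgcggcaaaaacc

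TCACNCCAC, the type of element that SREBP factors bind, was found in the Hmgcs1 window alone among the 32, beginning 137 bases before the start (position -137). These letters were in 1.24% of the 32851 promoter windows of the table. CCAAT, the box of the NF-Y factor that often stands beside such elements, was found in 21 of the 32 windows, against 37.4% of all windows. GGGCGG, the GC box, was found in 26 of the 32 windows, against 35.7% of all. The E-box CACGTG was in 7 of the 32 windows, Abca1 among them, against 7.15% of all. The Scap windows overlap and hold the same site, and by gene the E-box was in 6 of the 24. Both strands were searched in each case. A match is a run of letters and not a measured binding site, and a window without one says nothing about the factor.

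All 8 genes of the mevalonate steps had a fold change above 0, against 7 of them when libraries were scaled by size alone (Idi1 turned) and 6 without WT library 1 (Idi1 and Fdft1 turned) or without KO library 2 (Acat2 and Idi1 turned). Of the 8 genes 1 rose and 0 fell, 7 did not pass, and the median log2 fold change was 0.073. By DESeq2 and by limma-trend 1 of the 8 was also called higher and 0 lower. Over the whole table DESeq2 called 531 genes higher and 480 lower, and limma-trend 732 and 695. An unadjusted edgeR p under 0.05 was reached by 2 of the 8, against 17.4% of all genes tested. Their summed level was 509 and 523 CPM in WT and 547 and 541 CPM in KO, most of it from Hmgcs1.

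Hmgcs1 (ENSMUSG00000093930) joins acetyl-CoA and acetoacetyl-CoA into HMG-CoA and is a classical SREBP target. Its level was 323.6 and 329.0 CPM in the WT pair against 349.8 and 343.3 CPM in the KO pair. Both KO libraries lay above both WT libraries. The mean rose from 326 ± 3.83 to 347 ± 4.65 CPM (SD, n = 2), which is 6.21% higher. On the log2 scale the change was 0.087 (SE 0.017, edgeR adjusted p = 0.00119), and the 95% interval of the difference was 3.70% to 8.78%. The call held in all 16 alternative settings, with log2 fold changes between 0.073 and 0.10. These settings include the same fit read at an adjusted p under 0.1, which cannot lose a called gene.

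Mvd, the decarboxylase that makes the first isoprenoid unit, stood at 19.1 and 19.5 CPM in WT and at 21.5 and 21.2 CPM in KO. The genotypes did not overlap, and the difference of 10.4% was the largest among the mevalonate genes above 10 CPM, but it did not pass (log2 fold change 0.14, SE 0.055, edgeR adjusted p = 0.142). Mvk, mevalonate kinase, had means of 17.0 and 18.2 CPM in WT and KO, and its WT pair differed from each other by more than the genotypes did. Pmvk, the next kinase, stood at 38.4 and 39.1 CPM.

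Fdft1, squalene synthase, which commits the pathway to sterols, had 71.2 CPM in WT library 1 and 79.3, 79.2 and 77.5 CPM in WT library 2 and the KO libraries. WT library 1 thus stood apart from the other 3, and the genotypes overlapped. Without WT library 2 Fdft1 was called higher (log2 fold change 0.14, edgeR adjusted p = 0.0115), and without WT library 1 its log2 fold change was -0.017. Ctsb, which overlaps 774 exon bases of Fdft1 on the opposite strand, had 409 and 411 CPM in WT and 412.1 and 412.0 CPM in KO. The part of Ctsb reads in the Fdft1 value was not tested. Acat2, the cytosolic thiolase of the first step, had means of 24.7 and 25.5 CPM, and the isomerase Idi1 had 12.3 CPM in both genotypes.

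Some of these genes share sequence with copies, which limits their counts. Transcripts were read in windows of 101 bases, the read length. Of these windows 28.7% of those of Acat2 also occurred in Acat3, 15.8% of those of Idi1 in other genes, and 21.3% of those of Fdps in other genes. Fdps, farnesyl diphosphate synthase, had only 2.54 and 2.88 CPM in WT and KO, with an interval of the difference from -7.14% to 38.5%. A second gene model on the same strand, Gm43738, covers 1124 exon bases of Fdps and had 0 reads in every library. How the authors' counting treated such reads is not stated in the sources used here, so the level of Fdps is uncertain. For Hmgcs1, Cyp46a1 and Abca1 no window was shared with another gene. Cyp46a1 and Abca1 also overlap no other annotated exon, and the gene model opposite Hmgcs1, Gm48342, had 11 to 25 reads per library.

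In the 10 sterol steps 0 genes were called in either direction by edgeR, DESeq2 or limma-trend. An unadjusted edgeR p under 0.05 was reached by 1 of the 10, against 17.4% of all genes tested. The median log2 fold change was 0.022, with a range from -0.096 for Ebp to 0.090 for Nsdhl. Summed levels were 440 and 437 CPM in WT and 452 and 449 CPM in KO. The exception at the unadjusted level was Cyp51, the demethylase of the first sterol, lanosterol.

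Cyp51 had 82.6 and 82.1 CPM in WT and 87.9 and 86.6 CPM in KO. The genotypes did not overlap, and the difference of 5.98% was close in size to that of Hmgcs1 (log2 fold change 0.084, SE 0.027, edgeR adjusted p = 0.0669). At an adjusted p under 0.1, where 4.63% of all genes are called higher, 4.42% lower and 9.05% in all, Cyp51 counted as higher. Akap9, which overlaps 166 exon bases of Cyp51 on the opposite strand, went from 143 to 153 CPM (log2 fold change 0.089, edgeR adjusted p = 0.00847). Whether the counting used strand is not stated in the sources used here, and the part of Akap9 reads in the Cyp51 value was not tested.

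The remaining sterol enzymes did not pass at either level. Sqle, squalene epoxidase, had means of 57.8 and 59.6 CPM in WT and KO, and Lss, lanosterol synthase, 42.1 and 42.6 CPM. Msmo1, the methylsterol oxidase, had 65.1 and 61.8 CPM in WT and 69.2 and 62.9 CPM in KO, so the KO pair differed from each other by more than the genotypes did. It was called higher only without KO library 2 (log2 fold change 0.13, edgeR adjusted p = 0.0210) and had -0.012 without KO library 1. Nsdhl, the dehydrogenase that acts next, had means of 21.0 and 22.4 CPM, and the ketoreductase Hsd17b7 had 21.3 and 21.7 CPM.

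Ebp, the sterol isomerase, was the one sterol-step gene with both KO libraries below both WT libraries, at means of 15.9 and 14.8 CPM, and it did not pass (edgeR adjusted p = 0.487). Near the end of the pathway Sc5d, the sterol desaturase, had 86.0 and 87.5 CPM, and Dhcr7, the reductase of the last step, 34.7 and 35.0 CPM. For Dhcr7 the 95% interval of the difference ran from -5.03% to 6.99%, and for Sc5d from -2.05% to 5.70%. The reductase Tm7sf2 had means of 14.1 and 13.9 CPM, and 7.89% of its windows also occurred in its neighbour Vps51.

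Taking mevalonate and sterol steps as 1 list of 18 enzymes, 1 rose, 0 fell and 17 did not pass, with a median of 0.044. In 16 of the 18 the fold change was above 0, in 15 with scaling by library size alone, where Idi1 turned, and in 13 to 16 with 1 library left out. Without Hmgcs1 the summed level of the other 17 was 625 and 631 CPM in WT and 650 and 647 CPM in the KO libraries. These sums do not overlap, and 8 of the 17 single genes overlapped between genotypes. Over all 30 genes 11 had both KO libraries above both WT libraries and 5 had both below, where 22.8% and 22.9% of all genes tested do so, 45.7% in all. An unadjusted p under 0.05 was reached by 8 of the 30 genes and by 17.4% of all genes tested.

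**Figure D2:**
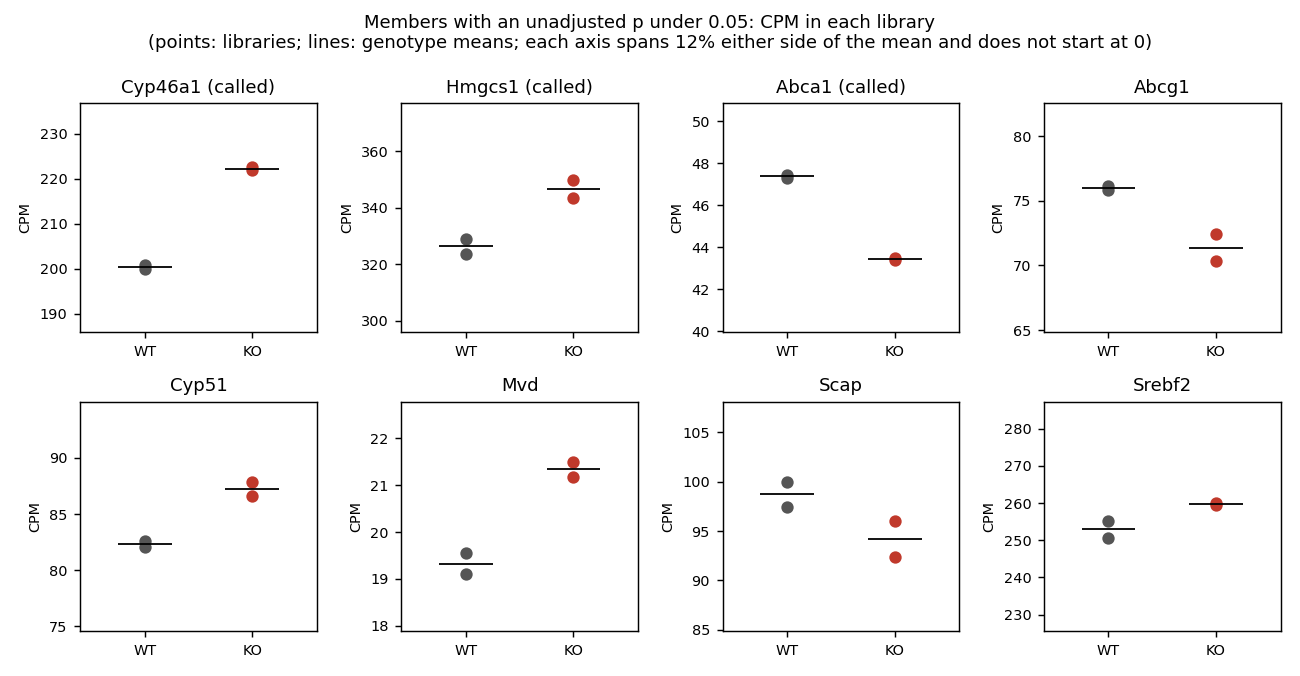
CPM in each library for the 8 genes with an unadjusted edgeR p under 0.05, with a line at each genotype mean and axes that do not start at 0. The genes were chosen by p from these same libraries, which favours genotypes that do not overlap. In all 8 the WT and KO points do not overlap, as in 45.7% of all genes tested. The 3 called genes are Cyp46a1, Hmgcs1 and Abca1.

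Among the 5 regulators 0 were called in either direction by edgeR, DESeq2 or limma-trend. An unadjusted edgeR p under 0.05 was reached by 2 of the 5, against 17.4% of all genes tested. Srebf2, the SREBP factor that chiefly drives cholesterol synthesis, stood at 255 and 251 CPM in WT and at 260.1 and 259.6 CPM in KO. Both KO values were above both WT values, by 2.74% in the mean (log2 fold change 0.039, SE 0.018, edgeR adjusted p = 0.244). The 95% interval of that difference was 0.18% to 5.37%.

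Srebf1, the family member tied more to fatty acid synthesis, had 42.3 and 44.9 CPM in WT and 44.9 and 41.8 CPM in KO. Its genotypes overlapped, with an interval from -6.21% to 5.73%. Rai1, which overlaps 109 exon bases of Srebf1 on the opposite strand, had 131 and 128 CPM in WT and 131 and 134 CPM in KO. The part of Rai1 reads in the Srebf1 value was not tested. Scap, the escort of both SREBP factors, had 99.9 and 97.5 CPM in WT and 92.4 and 96.0 CPM in KO. It lay lower in both KO libraries, with a difference of -4.60% in the mean, and did not pass (log2 fold change -0.068, SE 0.027, edgeR adjusted p = 0.167).

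Insig1, a retention protein that is itself an SREBP target, had 54.6 and 56.3 CPM in WT and 58.6 and 54.0 CPM in KO. The KO pair spanned the WT pair, and the interval of the difference was -3.53% to 7.38%. Insig2, its relative with less dependence on SREBP, had 32.4 and 33.2 CPM in WT and 33.2 and 32.7 CPM in KO, with an interval from -5.54% to 6.89%. For both Insig genes the interval lies within 8% of no difference on either side, and a difference of either sign inside it was not resolved with 2 libraries per genotype.

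In transport, efflux and turnover 1 of 7 genes rose, 1 fell and 5 did not pass, with a median log2 fold change of -0.014. Cyp46a1 (ENSMUSG00000021259) had the smallest p of the 30 genes. Its level was 199.98 and 200.9 CPM in the WT pair and 221.9 and 222.6 CPM in the KO pair. The gap between genotypes was more than 20 CPM, while libraries of 1 genotype differed by less than 1 CPM. On the log2 scale the WT pair differed by 0.0069 and the KO pair by 0.0043, less than the SE of the fit. From 2 libraries such closeness is a poor measure of the spread. The mean rose from 200.5 ± 0.681 to 222.3 ± 0.473 CPM (SD, n = 2), 10.9% higher, or 0.15 on the log2 scale (SE 0.018, edgeR adjusted p = 4.83e-06). Its 95% interval was 7.98% to 13.8%, and the call held in all 16 alternative settings, the looser threshold among them.

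Abca1 (ENSMUSG00000015243), a target of the LXR receptors, stood at 47.3 and 47.5 CPM in WT and at 43.4 and 43.5 CPM in KO. The pairs did not overlap. Libraries of 1 genotype lay closer together than the SE of the fit, with log2 differences of 0.0046 in WT and 0.0041 in KO. From 2 libraries such closeness, and the SDs below, are poor measures of the spread. The mean fell from 47.4 ± 0.107 to 43.4 ± 0.088 CPM (SD, n = 2), a log2 fold change of -0.13 with an SE of 0.036 (edgeR adjusted p = 0.0346). The call was lost with DESeq2 (adjusted p = 0.103) and on leaving out any 1 library, when the edgeR adjusted p ranged from 0.0911 (without KO library 2) to 0.161 (without WT library 2). Through all 16 settings the log2 fold change stayed between -0.14 and -0.12.

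Abcg1, the partner transporter that passes cholesterol to lipoprotein particles, had 76.2 and 75.9 CPM in WT and 70.4 and 72.4 CPM in KO. Both KO values were below both WT values, and the difference missed the threshold (log2 fold change -0.091, SE 0.029, edgeR adjusted p = 0.0642). It passed with library size alone (edgeR adjusted p = 0.0352), with the stricter filter (0.04999) and without KO library 2 (0.0468). Nr1h2, which encodes the LXR beta receptor that controls both transporters, had means of 50.2 and 49.1 CPM in WT and KO. Its interval of the difference, -6.96% to 2.74%, includes 0.

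Genes of cholesterol movement inside the cell showed no called difference. Npc1 and Npc2, the pair that carries cholesterol out of lysosomes, had means of 78.4 and 77.6 CPM and of 50.7 and 51.1 CPM in WT and KO. The interval was -5.24% to 3.44% for Npc1 and -4.03% to 5.87% for Npc2. Rmc1, which overlaps 511 exon bases of Npc1 on the opposite strand, had 27.6 and 27.8 CPM in WT and 27.1 and 26.2 CPM in KO. The part of Rmc1 reads in the Npc1 value was not tested. Stard4, a soluble sterol carrier induced by SREBP, had means of 25.6 and 26.5 CPM, with overlapping libraries.

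Levels were also set beside each other per length, as CPM per kilobase of exon in the GENCODE vM21 annotation, which is of another build than the counts and makes these values approximate. Hmgcs1 was highest of the 30 with 71.03 in WT and 75.4 in KO, followed by Cyp46a1 with 61.0 and 67.6 and by Srebf2 with 35.2 and 36.2. Pmvk came next with 22.4 and 22.8. The libraries of these 4 genes did not overlap with those of their neighbours in the order. Fdft1, Insig1 and Sc5d, with 17.8, 17.9 and 17.7 in WT, could not be ordered, since their libraries overlapped. At the low end stood Idi1 with 3.50, Tm7sf2 with 3.21 and Fdps with 0.605 in WT.

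**Figure D3:**
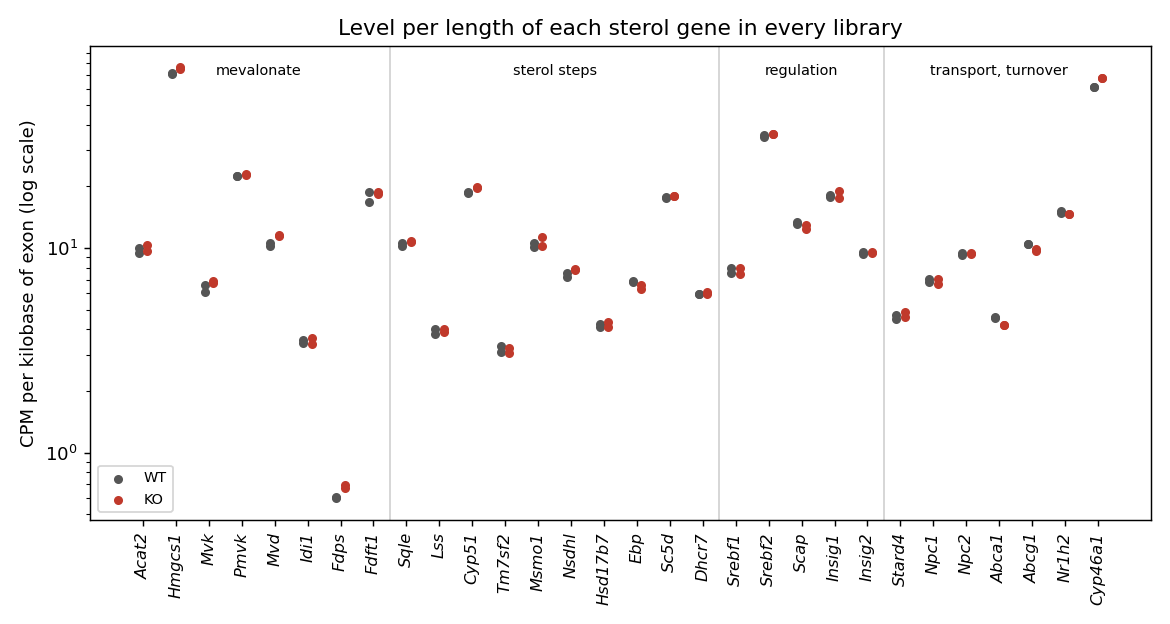
CPM per kilobase of exon for each of the 30 genes in every library, on a log axis, with WT in grey and KO in red. Hmgcs1, Cyp46a1 and Srebf2 stand above the rest in all 4 libraries, and Fdps stands lowest. The gap between genotypes is small beside the full range over the 30 genes. Genes close in level, such as Fdft1, Insig1 and Sc5d, overlap.

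Other lipid genes, from lists that hold none of the 30, were read in the same fit. In fatty acid synthesis 0 of 15 genes were called by edgeR, DESeq2 or limma-trend, and the median was 0.0076. An unadjusted edgeR p under 0.05 was reached by 4 of the 15, against 17.4% of all genes tested. Fasn, fatty acid synthase, had 396 and 395 CPM in WT and 397 and 399 CPM in KO. Scd1, a desaturase, had 243 and 241 CPM in WT and 248.8 and 252.9 CPM in KO (edgeR adjusted p = 0.0907), and Acacb, a carboxylase of the mitochondrial surface, 8.12 and 7.89 against 6.51 and 6.69 CPM (edgeR adjusted p = 0.0588).

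The isoprenoid branch, which draws on the same precursors for prenyl groups, dolichol and ubiquinone, also had 0 of 13 genes called by the 3 tools. The median was 0.0029, and 1 of the 13 had an unadjusted edgeR p under 0.05, against 17.4% of all genes tested. Among 13 further genes of sterol sensing and LXR partners 0 were called by the 3 tools, with a median of -0.0088. An unadjusted edgeR p under 0.05 was reached by 2 of these 13, against the same 17.4%. Rxra, a partner receptor of LXR, had 40.6 and 40.0 CPM in WT and 36.6 and 37.7 CPM in KO (edgeR adjusted p = 0.0810). Its log2 fold change was -0.12, while Rxrb, Nr1h3 and Mylip of the same list had 0.016, 0.022 and 0.053. In that list 6 genes had a fold change above 0 and 7 below.

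Of 24 other genes of uptake, transport, esterification and oxysterol metabolism 2 fell and 0 rose, with a median of -0.0032. An unadjusted edgeR p under 0.05 was reached by 6 of the 24, against 17.4% of all genes tested. DESeq2 called 1 lower and limma-trend 2 lower. Apod, a lipid-binding lipocalin made largely by glia, had 145 and 149 CPM in WT and 135 and 134 CPM in KO (log2 fold change -0.13, SE 0.023, edgeR adjusted p = 0.000506). Ch25h, which makes a hydroxylated cholesterol in immune and vascular cells, was scarce and fell from 1.02 and 0.805 CPM in WT to 0.44 and 0.42 CPM in KO (log2 fold change -1.07, SE 0.30, edgeR adjusted p = 0.0299). The Ch25h call was lost without WT library 1 (log2 fold change -0.89, edgeR adjusted p = 0.259), without KO library 1 (0.0788) and without KO library 2 (0.0772). DESeq2 gave Ch25h no adjusted p, and the gene it called lower was Apod.

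Markers of the cell types that make and use cholesterol moved in the same libraries. In bulk libraries fewer cells of a type and less RNA per cell cannot be told apart. Of 12 oligodendrocyte markers 9 rose and 0 fell, with a median of 0.11, and they summed to 10281 to 10362.5 CPM in WT and 10928 to 10939.6 CPM in KO. Of 5 markers of precursors and newly forming oligodendrocytes 2 rose, Gpr17 and Enpp6, and 0 fell. Their median was -0.0089, and they summed to 483 to 494 CPM in WT and 501 to 503 CPM in KO. Pdgfra, Cspg4 and Bcas1 had log2 fold changes of -0.044, -0.034 and -0.0089 and were not called. Of 8 astrocyte markers 3 fell and 0 rose, with a median of -0.030 and sums of 5374 to 5380.1 CPM in WT and 5256 to 5282 CPM in KO. Of 6 general neuronal markers 2 rose and 0 fell, with a median of 0.021 and sums of 4719 to 4728 CPM in WT and 4844 to 4849 CPM in KO. Larger shifts were in regional and epithelial markers.

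All 6 striatal markers rose, with a median of 0.30 and sums of 373 to 382 CPM in WT and 442 to 448 CPM in KO. All 6 dentate granule markers fell, with a median of -0.71, and so did all 6 cerebellar markers, with a median of -1.16. Of 8 choroid plexus markers 5 fell and 0 rose, with a median of -0.47 and sums of 635 to 636 CPM in WT and 435 to 442 CPM in KO. Endothelial markers, with 1 of 6 higher and 0 lower, summed to 221 to 224 CPM in WT and 219 to 221 CPM in KO. Among 7 microglial markers 0 were called by edgeR, DESeq2 or limma-trend. An unadjusted edgeR p under 0.05 was reached by 1 of the 7, against 17.4% of all genes tested. Each tested marker had reads in all 4 libraries. The log2 fold changes of Hmgcs1, Cyp46a1 and Abca1 were 0.087, 0.15 and -0.13, and the part of such marker shifts in them was not tested.

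**Figure D4:**
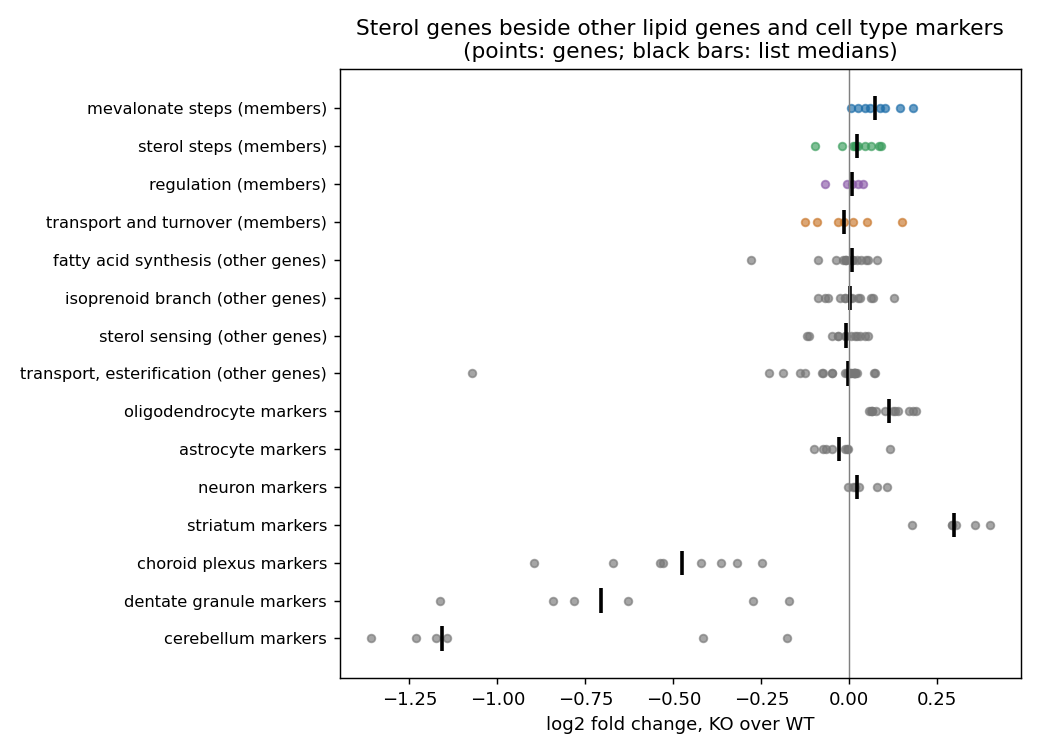
Log2 fold change, KO over WT, of each gene in the 4 groups of sterol genes, the 4 lists of other lipid genes and 7 lists of cell type or region markers, with a bar at each list median. Sterol and other lipid genes lie between -0.28 and 0.18 apart from Ch25h. Every choroid plexus, dentate granule and cerebellar marker lies below 0, with list medians of -0.47, -0.71 and -1.16, and every striatal marker above 0, with a median of 0.30.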

How the data were processed

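The files hold raw counts of reads per gene for 4 libraries, as deposited by the authors in 1 table with mouse Ensembl identifiers. TRIzol extraction, capture on oligo dT beads and strand-specific libraries read in pairs are given per the labels' protocols. The tools named per the submitters' processing notes are STAR 2.6.1c, featureCounts, FastQC and DESeq2, on GRCm39. Which annotation, strand setting and rule for multi-mapping reads were applied was not given in the sources used here. Of counts between 1 and 20, 72.8% to 74.3% were even, so a read pair may add 2 to a gene, and counting error may then be underestimated. With counts halved and rounded, 737 genes were called higher and 692 lower, against 723 and 688. Of the sterol genes 2 were then higher and 1 lower, as in the main fit.

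Symbols came from a reference table that matched 52081 of 55414 identifiers. The analysis used edgeR 4.0.16 in R 4.3.3: filterByExpr at a minimum count of 10 (21592 genes kept), TMM scaling, glmQLFit and glmQLFTest on genotype, and Benjamini-Hochberg adjustment over all genes. CPM uses the scaled library size. The SE is the size of the log2 fold change over the square root of F, and the 95% intervals use the degrees of freedom of the fit. The procedure was also run on simulated counts with a set spread. That run is not offered as a check of changes as small as those called here. DESeq2 1.42.0 and limma 3.58.1 served as alternatives. The genes, the lists and the settings were chosen with earlier results of these data known. All 30 genes are named. Library values are printed for those with an unadjusted p under 0.05 and for the regulators, and for some others whose pairs differed. Of the other lipid lists, called genes were named, with Fasn, Scd1, Acacb, Rxra, Rxrb, Nr1h3 and Mylip named after their values were seen. Exon lengths, overlaps and shared windows came from GENCODE vM21.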

Additional observations from a re-analysis of the deposited data

How the results depend on the processing

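Each value was read under 16 alternatives, and 446 of the 478 values for single sterol genes kept their direction and their side of the threshold. The looser threshold of adjusted p under 0.1 is counted among the 16. It reads the main fit again, so a called gene cannot be lost there. Hmgcs1 and Cyp46a1 were called in all 16. The number of sterol genes called lower, 1, was 2 with library size alone, 2 with the minimum count of 50 and 2 at an adjusted p under 0.1, where Abcg1 joined Abca1. It was 0 with DESeq2 and 0 to 1 with 1 library left out. The number called higher was 2 to 3 throughout. The median log2 fold change of the 30 genes was 0.016 with library size alone and 0.018 to 0.030 with 1 library left out. Of the 27 genes that were not called, 16 kept their direction in every alternative run and 11 turned in at least 1. Library size alone gave -0.0059 for Idi1 and -0.0026 for Insig2. With 1 library left out, which leaves a lone library whose spread is borrowed from the pair, log2 fold changes ranged from -0.0079 to 0.097 for Acat2, -0.051 to 0.060 for Idi1, -0.017 to 0.14 for Fdft1, -0.022 to 0.056 for Lss, -0.066 to 0.023 for Tm7sf2, -0.012 to 0.13 for Msmo1, -0.018 to 0.060 for Hsd17b7, -0.060 to 0.044 for Srebf1, -0.037 to 0.083 for Insig1, -0.010 to 0.025 for Insig2 and -0.052 to 0.021 for Npc1. The cause was not tested. The replicate numbers are shared between genotypes, but same-numbered libraries did not deviate together (r = 0.029 over 11909 genes). With the number as a replicate block 2 sterol genes were higher and 1 lower, and 818 genes were higher and 772 lower over the whole table, against 723 and 688. The 95% interval of the difference ran from 3.70% to 8.78% for Hmgcs1 and from -7.14% to 38.5% for Fdps.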
